A study of Homo sapiens with 4 samples.

Results

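Band 9q34.3 is the end of the long arm of chromosome 9, and the ELF5 peaks with a summit between 137400 and 141213 kb of that chromosome on hg19 are described here. ELF5 was mapped by chromatin immunoprecipitation and sequencing (ChIP-seq) in T47D cells, a human breast cancer line of the luminal A type. The ELF5 ChIP, with antibody sc-376737, had 3 replicates and the input had 1 sample. All were from cells in RPMI with serum and insulin, with no treatment listed. Nothing in the labels says that the replicates were separate cultures, and they share 1 cell line, whose identity a peak list, which holds no expression, cannot be checked against. The deposited data were 1 list of peaks without separate values for the replicates, so replicate spread cannot be given and no difference was tested. The track name refers to 1-3, and which replicates went into the list is not clear from it.

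The band held 1429 of the 115384 peaks of the list, which is 1.24% of the list and 24.4% of the peaks on chromosome 9. A stretch of 130 kb, from 139350 to 139480 kb, was not analysed here, which left 3683 kb. Within the band, 258 peaks made up a cluster between 139835 and 140219 kb, and the other 1171 peaks are called the rest of the band. The band and the cluster were both chosen on the number and strength of peaks in this same list. All values of both are therefore a description, and their peak numbers and strengths support no separate statement.

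ELF5 belongs to the ETS family of transcription factors, whose members bind DNA at a GGAA core. In the mammary gland it acts downstream of prolactin and progesterone and drives alveolar cells towards milk production, and in luminal breast cancer cells it has been tied to a weaker estrogen receptor programme. Lightly staining chromosome bands, of which 9q34.3 is one, are textbook gene-rich chromatin. Gene maps place in 9q34.3 the gene of a fibrillar collagen chain, COL5A1, near its start. They also place there OLFM1 (a secreted glycoprotein of the nervous system), LHX3 (a pituitary homeobox factor), TRAF2 (an adaptor of tumour necrosis factor receptors), PTGDS (prostaglandin D synthase), ABCA2 (a lipid transporter), GRIN1 (a subunit of NMDA receptors), TUBB4B (a beta-tubulin), EHMT1 (a histone H3 lysine methyltransferase) and CACNA1B (a calcium channel subunit). In the RefSeq table for GRCh38.p14 these genes follow each other in that order towards the chromosome end. The same table lists 93 protein-coding genes from COL5A1 to CACNA1B, those of the stretch not analysed included, out of 778 on chromosome 9. Which peak lies at which gene was not analysed here, because no annotation or sequence of hg19 was used.

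Most ELF5 peaks in 9q34.3 were weak. The authors' fold enrichment, the ChIP signal over the local background at the peak, had a median of 3.16 in the band, against 3.66 in the whole list. The interquartile range of the band's folds ran from 2.74 to 3.86, against 2.98 to 5.50 in the whole list. Strong peaks, the 10% of the list with the highest folds, began at a fold of 11.99, and by that rule 10.0% of the whole list was strong. In the band 68 of 1429 peaks were strong, which is 4.76% (exact binomial 95% interval 3.71% to 5.99%). The authors' q was under 0.05 at 79.8% of the band's peaks, against 87.5% of the whole list. The fragment pileup recovered at a peak had a median of 15 in the band and 16 in the whole list. For a peak of the band at the median fold, with 14 fragments piled up over a background of 3.35, the exact Poisson 95% interval of the fold ran from 1.83 to 5.15. Peaks near the median could therefore not be ranked at this depth. All intervals cover counting error only. Those of folds hold the background fixed, and those of shares treat neighbouring peaks as independent.

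**Figure D1:**
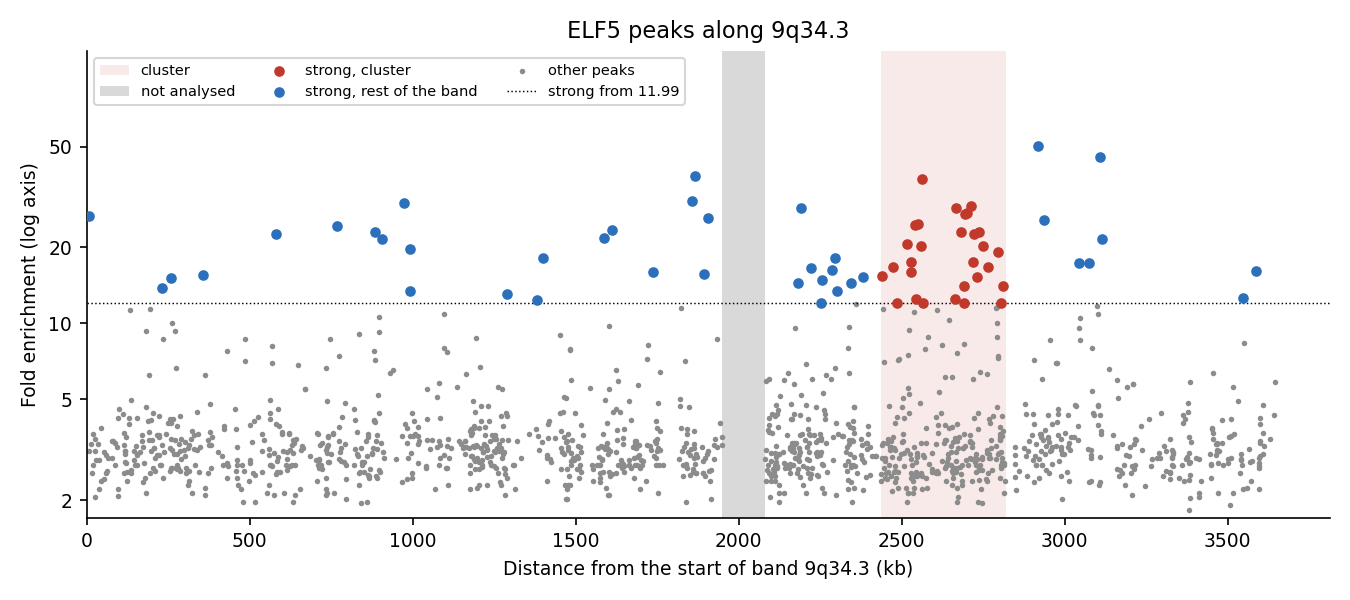
Fold enrichment (log axis) of the 1429 ELF5 peaks of 9q34.3 against distance from the start of the band in kb. Each point is 1 peak, red points are the 29 strong peaks of the cluster, blue points the 39 strong peaks of the rest, grey points the other peaks, and the grey block was not analysed. The strong peaks are most crowded in the shaded cluster, while the 2 highest points lie beyond it, towards the chromosome end.

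The cluster held denser ELF5 binding than the rest of the band, with a heavy upper tail of folds. Its typical peak was as weak as elsewhere in the band. The cluster held 672 peaks per Mb, against 355 in the rest of the band, a ratio of 1.89. It held 75.5 strong peaks per Mb, against 11.8 in the rest, a ratio of 6.39. The cluster covers 10.4% of the analysed length, and it held 18.1% of the band's peaks and 42.6% of its strong peaks. Its 29 strong peaks were 11.2% of its 258 peaks (7.66% to 15.7%), and the 39 strong peaks of the rest were 3.33% of 1171 (2.38% to 4.52%). The share in the cluster lay near the 10.0% of the whole list, and the share in the rest lay below it.

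The median fold was 3.15 in the cluster and 3.17 in the rest. The first quartile was 2.67 in the cluster and 2.75 in the rest, and the third quartile was 4.38 in the cluster and 3.80 in the rest. The 90th percentile was 12.05 in the cluster, 5.73 in the rest and 11.99 in the whole list. The 2 stretches thus had nearly the same middle and lower part of the distribution and parted above it. Among strong peaks alone the median fold was 17.5 in the cluster and 17.4 in the rest. The highest fold was 37.1 in the cluster and 50.3 in the rest, so the strongest peak of the band lay outside the cluster.

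**Figure D2:**
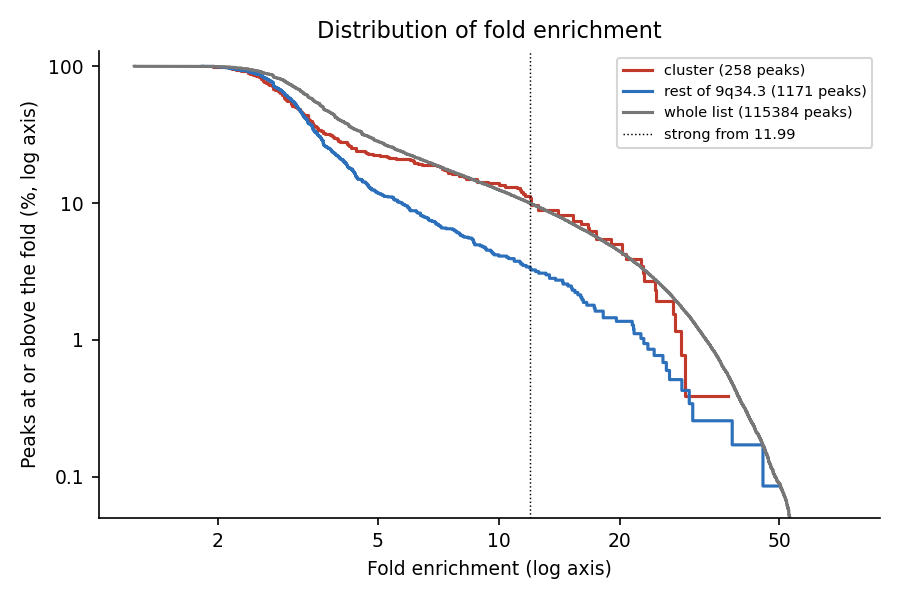
Share of peaks (%, log axis) at or above each fold (log axis), for the cluster in red, the rest of 9q34.3 in blue and the whole list in grey. The curves of the cluster and the rest run together near their medians of 3.15 and 3.17, and at the fold of 11.99 where strong peaks begin the cluster is at 11.2% and the rest at 3.33%.

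ELF5 peaks of the cluster covered more of the DNA. This follows in part from the number and strength of its peaks, on which the cluster was chosen. Peaks took up 30.0% of the cluster's bases, against 10.4% in the rest, and strong peaks alone 10.0% of the bases in the cluster, against 1.32% in the rest. The median peak was 260 bp wide in the cluster and 212 bp in the rest, and the median strong peak 1356 bp in the cluster and 927 bp in the rest. Wide strong peaks were not limited to the cluster. Their median width was 1184 bp in the 355 kb just before it, part of the rest, and 1116 bp in the terminal band 7p22.3. Peaks of at least 2000 bp, which made up 0.448% of the whole list, numbered 5 in the cluster, which is 1.94%, and 7 in the rest, which is 0.598%. The smallest width, 135 bp, was held by 6.20% of peaks in the cluster and 7.34% in the rest, against 9.27% of the whole list. Neighbouring summits lay a median of 1024 bp apart in the cluster and 1358 bp in the rest. The median was also 1024 bp in the 355 kb just before the cluster, so this spacing was not particular to the cluster. Neighbouring strong summits lay a median of 8983 bp apart in the cluster and 31493 bp in the rest.

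A fold is a ratio to the local background, and the background was higher in the cluster than in the rest as a whole. Its median was 4.09 fragments in the cluster and 3.65 in the rest, against 3.11 in the whole list. The 355 kb just before the cluster, part of the rest, had a median background of 4, close to that of the cluster. Among peaks over a background of 4 fragments or more, 23 of 164 were strong in the cluster, which is 14.0% (9.10% to 20.3%), and 27 of 492 in the rest, which is 5.49% (3.65% to 7.88%). Among peaks over a background of 2.5 to under 4, 6 of 93 were strong in the cluster, which is 6.45% (2.40% to 13.5%), and 10 of 668 in the rest, which is 1.497% (0.720% to 2.74%). In the whole list 10.8% of peaks were strong over a background of 4 or more and 8.36% over 2.5 to under 4, and both values lay within the intervals of the cluster and above those of the rest. The cluster was chosen on peak number and strength, so these shares describe it and support nothing further. The part of the background in them was not tested. Under 2.5 fragments the cluster had 1 peak and the rest 11, too few to compare. The authors' q was under 0.05 at 77.9% of peaks in the cluster and 80.3% in the rest, so weakly supported peaks stood beside the strong ones in the cluster.

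**Figure D3:**
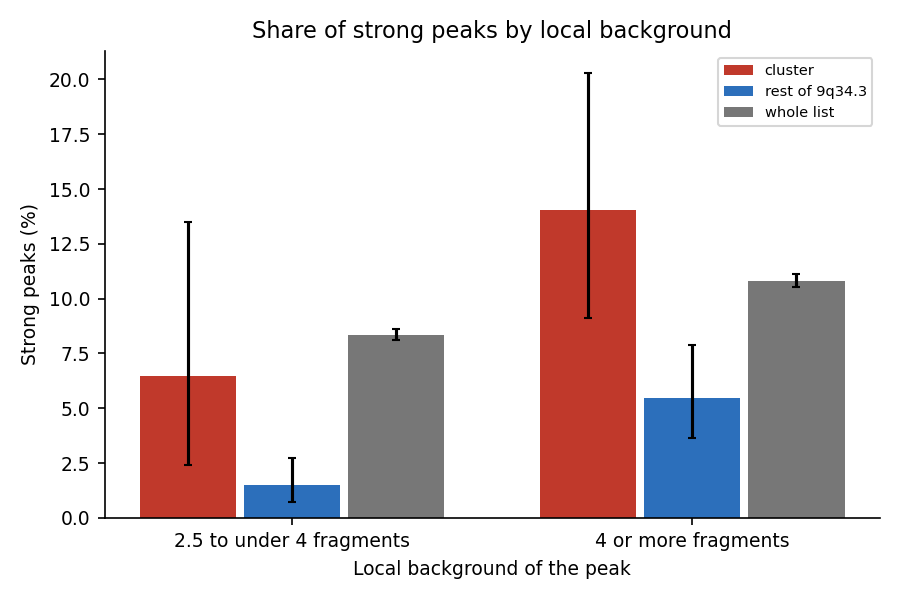
Share of strong peaks (%) among peaks over a local background of 2.5 to under 4 fragments and of 4 or more, for the cluster in red, the rest of 9q34.3 in blue and the whole list in grey. Bars are shares and lines are exact binomial 95% intervals, and at 4 or more the cluster is at 14.0%, the rest at 5.49% and the whole list at 10.8%.

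Of the 29 strong ELF5 peaks of the cluster, 22 lay in 3 runs. Strong summits within 12500 bp of each other were joined, which gave 9 groups in the cluster, 5 of them with a single strong peak, and the positions of the runs were read from the data. The first run covered 49.5 kb, from 139916422 to 139965956, with 9 strong peaks among 39. The second covered 53.6 kb, from 140082566 to 140136179, with 10 strong peaks among 40. A shorter run of 3 strong peaks covered 16.4 kb, from 140194989 to 140211343, near the end of the cluster. The comparisons that follow are of the 2 longest runs with the other stretches of the cluster. The stretch between them held 2 strong peaks among 66, the stretch before the first run 3 among 54 and the stretch after the second 5 among 59. The median fold was 3.05 in the first run, 3.31 in the second and 3.08 between them, so the runs, which were defined by their strong peaks, differed little from their surroundings in the typical peak. Median backgrounds were 4.86 in the first run, 4.10 in the second and 4.19 between them.

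The widest break between strong peaks in the cluster ran over 96.5 kb, from 139965957 to 140062489. It held 50 peaks, 51.8 per 100 kb, none of them strong, at a median fold of 3.09 and a highest fold of 11.3. Weak ELF5 peaks were therefore frequent also where the cluster had no strong ones. In the rest of the band, by contrast, 24 of 31 groups of strong peaks joined in the same way held a single strong peak, against 5 of 9 in the cluster. The largest group in the rest held 3 strong peaks, and it lay in the 355 kb just before the cluster.

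**Figure D4:**
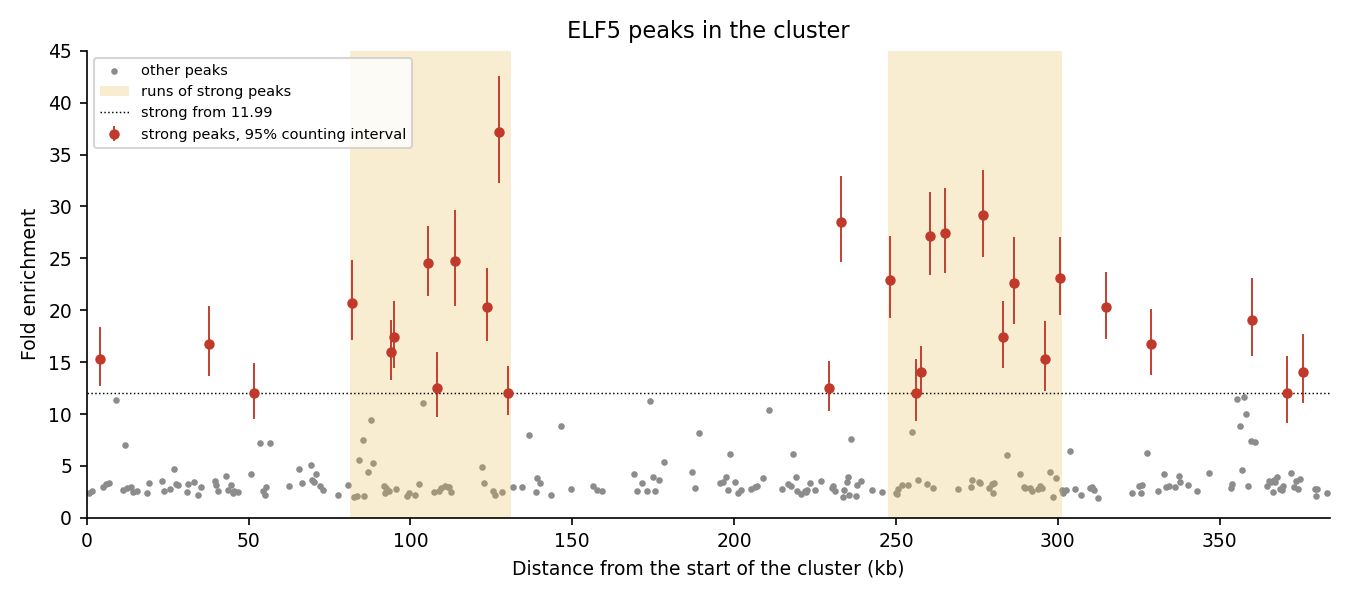
Fold enrichment of the 258 peaks of the cluster against distance from its start in kb. Red points are strong peaks with exact Poisson 95% counting intervals, grey points are the other peaks, and the yellow blocks are the 2 longest runs, of 9 and 10 strong peaks, with a break of 96.5 kb without a strong peak after the first run.

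The first run contained the strongest peak of the cluster, from 139962231 to 139963060, at a fold of 37.1, for which the 95% counting interval was 32.2 to 42.6, with 203 fragments piled up over a background of 4. The next strong peak of the run was a broad one of 2332 bp from 139963625 to 139965956, at a fold of 12.1. The other strong peaks of this run had folds from 12.52 to 24.7. The 24.7-fold peak ran from 139947985 to 139949340, and a 24.6-fold peak from 139939778 to 139941276.

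The second run was led by a peak from 140111104 to 140112864, at a fold of 29.1 (25.2 to 33.5) with 191 fragments piled up over a background of 5. Next by fold came peaks from 140099536 to 140100488, at 27.5 (23.6 to 31.8), and from 140094749 to 140095794, at 27.2. The intervals of the first 2 overlapped, so their order was not resolved. The run also held the widest peak of the cluster, 2695 bp from 140115744 to 140118438, at a fold of 17.5 (14.4 to 20.9). Shortly before the run stood a peak from 140066925 to 140068511, at a fold of 28.5 (24.6 to 32.9).

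The 2 strongest ELF5 peaks of the band lay beyond the cluster, towards the chromosome end. The first ran from 140317043 to 140318655 and had a fold of 50.3 (43.8 to 57.5), a pileup of 214 and a background of 2.89, and ranked 99 in the whole list by fold and 76 by p. The second ran from 140505867 to 140508125 and had a fold of 45.5 (40.2 to 51.3), a pileup of 265 and a background of 4.32, and ranked 197 by fold and 10 by p. Their intervals overlapped, and no other peak of the band had an interval that reached the first. Of the 10 strongest peaks of the band 4 lay in the cluster, and all 10 had backgrounds from 2.89 to 6 fragments. In all, 4 peaks of the band were among the 1000 highest folds of the list and 10 among the 1000 smallest p, 5 of those in the cluster. The band held 1.24% of all peaks of the list, and neither count of the band reached that share of 1000. The cluster, chosen on peak number and strength, held 18.1% of the band's peaks.

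Before the cluster, the strongest peaks formed a pair, from 139266681 to 139268459 at a fold of 38.2 (33.1 to 43.7) and from 139257424 to 139258466 at a fold of 30.4 (26.7 to 34.6). Among the 10 strongest were also a peak from 138370713 to 138372810, at a fold of 29.8 (25.1 to 35.1), and one from 139589867 to 139591038, at a fold of 28.6 (24.3 to 33.4). The widest peak of the band measured 2825 bp, from 137977880 to 137980704, at a fold of 22.6 (19.1 to 26.5). A peak of 2634 bp, from 139741767 to 139744400, was the third widest and had a fold of 14.5 (12.2 to 17.03) over a background of 8.

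Along the band, the number of strong peaks varied more between stretches than the typical fold did. The cluster, with 672 peaks and 75.5 strong peaks per Mb, was preceded by 355 kb with 566 peaks and 28.2 strong peaks per Mb. The 1950 kb from the start of the band to the stretch not analysed held 369.7 peaks and 10.8 strong peaks per Mb, and the 994 kb after the cluster 251 peaks and 8.05 strong peaks per Mb. Median folds in these stretches were 3.15 in the cluster, 3.18 before it, 3.17 in the first 1950 kb and 3.16 after the cluster. Over the 36 whole windows of 100 kb, the number of peaks had a median of 38 and a highest value of 74, and 11 windows had no strong peak. The windows with the most strong peaks, 9 each, were those from 139900001 to 140000000 and from 140100001 to 140200000, both in the cluster. The window with the most peaks, from 139500001 to 139600000, lay outside it and held 2 strong peaks. Window medians of the background ran from 3.05 to 4.43 fragments. The last summit of the band lay at 141044789, 168 kb before its end, and assembly gaps were not taken out of any density.

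**Figure D5:**
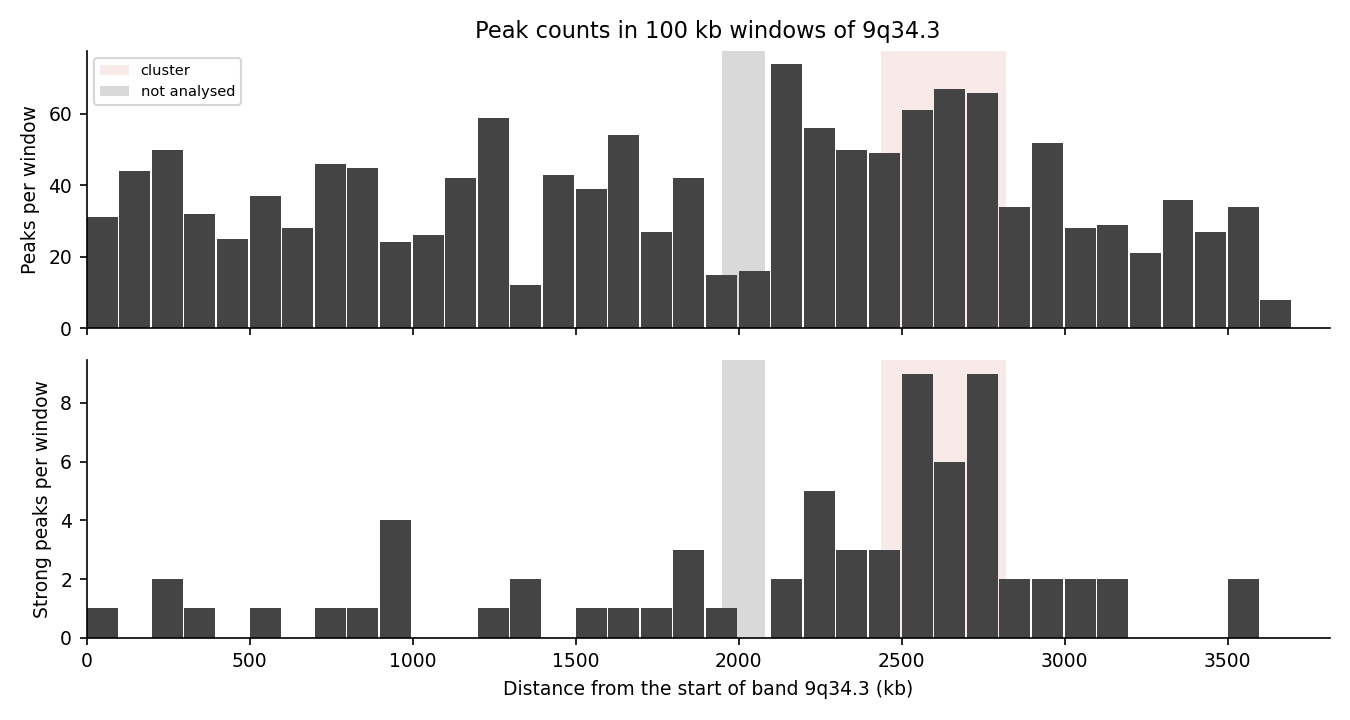
Number of ELF5 peaks (upper panel) and of strong ELF5 peaks (lower panel) in windows of 100 kb, against distance from the start of 9q34.3 in kb. The shaded cluster has up to 9 strong peaks per window, while the window with the most peaks, 74, lies before it and has 2 strong ones, and the windows that touch the grey block count only the bases outside it.

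Joining all summits within 12500 bp gave 40 regions in the band, and 26 regions of at least 10 peaks held 96.9% of the band's peaks and all 68 strong ones. The cluster was one of these regions, from 139835540 to 140218386, and no other region held more peaks. Joining was stopped at the stretch not analysed, so the regions on either side of that stretch may be parts of a larger one. The ranking therefore covers the analysed bases only. The region just before the cluster, from 139481636 to 139820024, began just after that stretch and held 201 peaks, of which 10 were strong. Of the 26 regions 8 held no strong peak, and their highest folds lay between 4.43 and 10.9. A region of 24 peaks from 140470573 to 140514160, around the 45.5-fold peak, had 3 strong peaks and the highest median fold of the 26, 4.16. The lowest median fold of the 26 was 2.74, in a region of 14 peaks from 137853718 to 137885026.

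The ends of the cluster lay at breaks between weak peaks, both longer than the largest distance between neighbouring summits inside it, 10077 bp. The cluster matches a region joined within 12500 bp in this same list, so such breaks at its ends follow from the joining. The first summit inside belonged to a peak from 139835540 to 139835729 at a fold of 2.38, and the summit before it, 15790 bp away, to a peak at a fold of 2.98. The last summit inside belonged to a peak from 140218094 to 140218386 at a fold of 2.38, and the next, 27871 bp further on, to a peak at a fold of 2.77. At the start of the band, the first peak inside had a fold of 3.14 and the last peak before it 3.66, 12523 bp apart. The members nearest to the stretch not analysed had folds of 3.56 before it and 2.90 after it. At the strong threshold, the members just inside had folds of 11.99 and 12.03, both in the cluster, and those just outside 11.97 and 11.71, both in the rest.

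The terminal bands 7p22.3, 17q25.3 and 20q13.33 were set beside 9q34.3. The density was 388 peaks per Mb in 9q34.3, 389 in 7p22.3, 309 in 17q25.3 and 287 in 20q13.33. The share of strong peaks was 4.76% in 9q34.3, 3.77% in 7p22.3, 5.70% in 17q25.3 and 3.84% in 20q13.33, and the median fold was 3.16, 3.13, 3.23 and 3.17 in the same order. The joined region with the most strong peaks held 29 strong peaks in 383 kb in 9q34.3, 21 in 957 kb in 7p22.3, 13 in 567 kb in 17q25.3 and 6 in 221 kb in 20q13.33. Each of these counts of strong peaks is the highest of its band. The same regions held 481 peaks per Mb in 7p22.3, 488 in 17q25.3 and 702 in 20q13.33. The cluster held 672 peaks per Mb, so its peak density was not the highest among these regions. Strong peaks were 11.2% of the peaks in the cluster, against 4.57%, 4.69% and 3.87% in the other regions in the same order. All are values side by side and were not tested.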

How the data were processed

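The study sequenced 3 ELF5 ChIP samples and 1 input of T47D cells, and 1 peak list was analysed. Its build is hg19, per the file headers. The authors' deposited score equals the whole part of 10 times −log10 p in all 115384 rows. The deposited −log10 p and −log10 q were used as given, and the deposited signal value was read as a fold, a ratio of ChIP signal over the background around the peak. The sources used here name no aligner, peak caller, threshold, use of the input or pooling. The header's mention of IDR could not be checked.

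Pileups were recovered from fold and p as whole numbers, which enter the fold times 0.910, with 1 added above and below and a Poisson tail for p. Backgrounds were then solved from the fold and need not be whole numbers. Pileups are given before the factor of 0.910, so pileup over background is not itself the fold. All 115384 peaks came within 0.001 of −log10 p, and 3 peaks of the band allowed a second pileup. In a test on 2000 peaks simulated from this same model, 100% of pileups were recovered, which checks the calculation and not the model. Total reads per sample are unknown here. Peaks belong to a stretch by their summit, positions count from 1, and bands came from circlize 0.4.16 in R 4.3.3. The members, stretches and lists were chosen with earlier results of these data known. The peaks named are the 10 strongest, the 3 widest, the strongest of joined regions (as a range), those at the ends of stretches and the isolated strong peak. Other peaks of the runs, and the pieces of the cluster, were chosen after their values were seen. Computation used scipy 1.17.1, numpy 2.4.6, pandas 2.3.3 and Python 3.11.15, and figures were drawn with matplotlib 3.10.9.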

Additional observations from a re-analysis of the deposited data

How the results depend on the processing

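Of 38 alternative values 24 moved, meaning that they left the exact binomial 95% interval of the reported value or, for a count, differed by over 1.5 times. The intervals of medians are narrow, and the stricter lists and strong thresholds move most values by construction. Among peaks with q under 0.05, the median fold was 3.35 in the band, 3.43 in the cluster and 3.35 in the rest, and the median distance of summits was 1171 bp in the cluster and 1796 bp in the rest. Among the 50% of the list with the highest folds, the band held 418 peaks and the cluster 86, the density ratio was 2.23, the median fold was 4.81 in the band, 7.55 in the cluster and 4.66 in the rest, and the distance was 2742 bp in the cluster and 4672 bp in the rest. With strong peaks as the highest 5%, the share was 2.17% in the band, 5.43% in the cluster (14 peaks) and 1.45% in the rest, and with the highest 20% it was 9.80%, 18.99% (49 peaks) and 7.77%. The ratio of shares, cluster over rest, was 3.37 and ran from 2.44 to 3.74 over 3 definitions chosen after seeing the data. Joining within 5 kb gave 161 regions, the longest with 93 peaks, and within 25 kb 6 regions. Within 25 kb the cluster was joined to the region of 201 peaks before it, since the summits at its start lie 15790 bp apart. The start of the cluster as an end of a region thus depends on the joining distance. No rows overlap, so merging changed nothing. Leaving out replicates was not run, since the list does not separate them. No paired analysis was possible because no replicate has values of its own. Motifs and promoter positions were not run without sequence of the build. At these pileups typical peaks cannot be ranked.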

Other observations

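Weak ELF5 peaks near a strong one had median folds close to those of other weak peaks. Among peaks that were not strong, 134 of 229 in the cluster lay within 5 kb of a strong summit, which is 58.5%, against 143 of 1132 in the rest, which is 12.6%. In the cluster their median fold was 2.95 within 5 kb and 3.15 farther away, and in the rest it was 3.14 both within 5 kb and farther away. The first 2 shares follow from the number of strong peaks in each stretch, and no difference was tested.

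The strong peak that stood farthest from any neighbour was also the narrowest strong peak of the band. It covered 192 bp near the chromosome end, from 140986611 to 140986802, with its nearest summit 8139 bp away, a fold of 16.1 (12.3 to 20.8) and a pileup of 58 over a background of 2.34. The median strong peak of the band measured 1057 bp. The nearest strong peak, from 140947697 to 140948320, had a fold of 12.6.

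Some weak peaks shared the same fold exactly. In the band, 28 peaks had a pileup of 13 over a background of 4, for a fold of 2.57, and 28 had a pileup of 14 over the same background, for a fold of 2.75.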
